A study of Mus musculus with 8 samples.

Results

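The clustered protocadherin locus was examined in liver DNA as the HpaII sites at chromosome 18 from 37080000 to 38010000 (mm9), a stretch of 930 kb that holds the protocadherin alpha, beta and gamma gene clusters. The sites were chosen by position and by being listed in all 8 files, and not by their scores. How a site came to be listed is not stated, and listing may depend on its tags. In all, 653 of the 1310003 sites listed in every file lay in the locus, and for 471 the MspI reference held 10 tags or more, the minimum used for levels. The samples were 8 C57BL/6J mouse liver DNAs, 4 labelled with a high-fat diet plus lingonberries (lingonberry) and 4 with the high-fat diet alone (HFD), each called a liver here, so the high-fat diet is shared by both groups and neither is a lean control. HELP-tagging was used, in which HpaII cuts CCGG only where its central CpG is unmethylated, and the cut ends are read as short tags. A site's m-score sets its HpaII tags against those of MspI, which cuts irrespective of CpG methylation. A score of 0 marks the methylated extreme and 100 the unmethylated one.

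Clustered protocadherins are cell-surface adhesion proteins known chiefly from neurons, where each cell uses its own small selection of them. In the alpha and gamma clusters each variable exon has a promoter of its own and is spliced to constant exons shared by the cluster, while the beta genes are single-exon genes. Choice among the promoters has been tied to CTCF binding and to DNA methylation laid down by Dnmt3b. RefSeq (GRCm38.p6) names 14 alpha genes from Pcdha1 to Pcdhac2, then 22 beta genes from Pcdhb1 to Pcdhb22, then 22 gamma genes from Pcdhga1 to Pcdhgc5. Slc25a2, a mitochondrial ornithine transporter gene, and Taf7, a gene for a TFIID subunit, stand between the beta and gamma genes in that order. Hars2 and Zmat2 come before the alpha cluster, and Diaph1 and Hdac3 come after the gamma cluster. The deposited positions are of build mm9, so single sites were not assigned to single genes. Liver is a mixture of cells, and a tag carries no record of its cell or allele, so a mixture of methylated and unmethylated cells cannot be told apart from partial methylation within each cell.

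The libraries held from 5877080 to 16076961 HpaII tags, and the locus received from 3760 to 9761 of them. Every lingonberry library but replicate 3 held more tags (9974503 to 16076961) than any HFD library (5877080 to 7428108). Lingonberry replicate 3 held 6121989. Raw tag counts are therefore not at equal depth between the diets. The MspI reference gave the locus a median of 25 tags per site used and the flanks, the 2 Mb on each side, a median of 25.5 tags. No pair of libraries agreed within sampling noise, since the chi-square per site was 1.32 or more in all 28 pairs, where noise alone gives about 1.

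Recovered HpaII tags were not whole numbers at 95 of the 653 sites of the locus (14.5%), against 55 of 3094 sites in the flanks (1.78%). Dividing a tag among several matching positions would leave such fractions, and the protocadherin exons are a family of similar sequences, but how the authors counted is not stated and this was not tested. These sites carried from 15.4% to 17.3% of the HpaII tags of the locus in a library, against 1.24% to 1.55% in the flanks. Those at 37090216 and 37099246, for example, had 1.39 MspI tags each and the same score as each other in every liver. They are counted as separate sites among the 653. Values at such sites may be shared with other copies and are uncertain, so the main comparisons are also given without them.

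Across the locus, the mean m-score was higher than in the flanking sequence, and intermediate scores were far more common. The mean m-score of the 471 sites was 39.5 ± 2.00, against 34.9 ± 0.683 for the 2334 sites of the flanks (SD over 8 livers). The locus exceeded the flanks in all 8 livers, by 4.59 ± 1.45 (SD, two-sided exact sign-flip permutation test over 8 livers, p = 0.00781, the smallest this test can give). This p measures the spread among the livers at these sites and does not say how often another region of this size would differ from its flanks. Within the locus 37.9% ± 3.56 of sites scored below 25, 47.4% ± 2.88 scored from 25 to below 75, and 14.7% ± 1.26 scored 75 or above (SD, n = 8). The flanks had 48.7% ± 1.36, 33.8% ± 1.63 and 17.5% ± 0.755 in the same ranges (SD, n = 8). In all sites outside the locus, the intermediate share was 29.7% ± 2.10 (SD, n = 8). The size of the m-score difference depended on the flank and the summary. It was 2.36 against the centromeric flank alone (exact p = 0.0156), 6.88 against the telomeric flank alone and 12.4 for the median over sites (exact p = 0.00781 for both). Among sites with at least 50 MspI tags the mean difference was 0.589 (exact p = 0.227), so the difference in the mean was lost there. Without sites whose HpaII tags were not whole it was 3.27 (exact p = 0.00781).

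**Figure D1:**
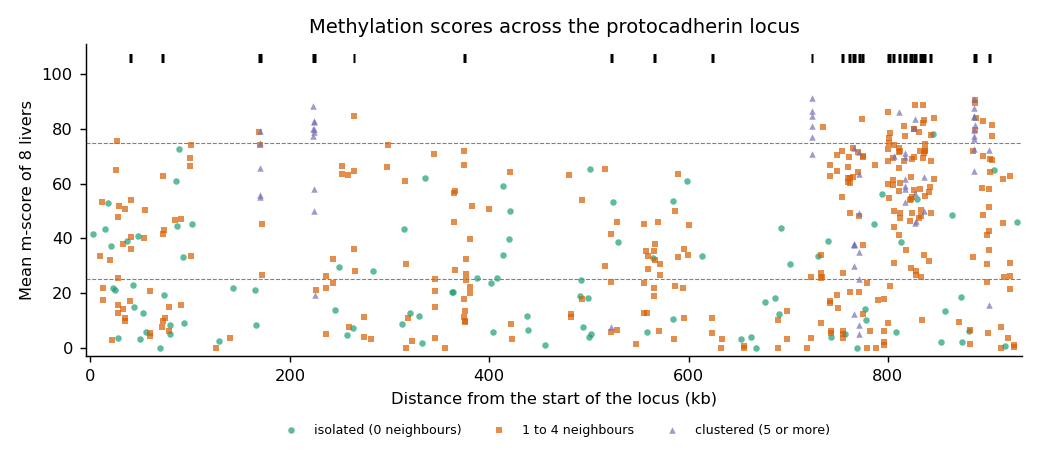
Mean m-score over 8 livers (vertical axis, 0 methylated to 100 unmethylated) of each site of the locus with at least 10 MspI tags, against distance from the start of the locus in kb. Symbols give the 3 classes by number of neighbouring sites, black bars mark the 26 clusters, and dashed lines mark scores of 25 and 75. No site in the fourth to the seventh of 10 equal parts scores 75 or above, while the last 2 parts average 49.6.

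The sites were grouped by how many other listed HpaII sites lay within 500 bp, since CpG-rich sequence, where sites crowd together, is commonly unmethylated. In the locus 97 sites were isolated (0 neighbours), 312 had 1 to 4 neighbours and 62 were clustered (5 or more). The share of sites with 1 to 4 neighbours was 66.2% in the locus and 52.7% in the flanks. Clustered sites made up 13.2% and 17.4%. No site of the locus had more than 9 neighbours, against up to 17 in the flanks.

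Isolated sites and sites with 1 to 4 neighbours scored higher in the locus, and clustered sites scored lower. At isolated sites the mean m-score was 24.8 ± 3.76 in the locus and 20.6 ± 1.72 in the flanks (SD, n = 8), a difference of 4.22 (exact p = 0.00781, adjusted over 3 classes 0.00781). With flanks of 1 Mb on each side the isolated difference was 1.66 and no longer passed (exact test, adjusted p = 0.0938), while it was 7.62 with neighbours within 250 bp and 15.96 at sites with at least 50 MspI tags. Sites with 1 to 4 neighbours had 39.5 ± 1.74 in the locus and 31.1 ± 0.762 in the flanks, a difference of 8.43 (SD, n = 8, exact test, adjusted p = 0.00781). This difference was smaller, though still past the threshold, with neighbours within 250 bp (2.80) and at sites with at least 50 MspI tags (4.84). Clustered sites had 62.2 ± 2.29 in the locus and 71.1 ± 1.41 in the flanks, a difference of -8.88 (SD, n = 8, exact test, adjusted p = 0.00781). With neighbours counted within 250 bp the clustered difference turned to 1.23 (exact test, adjusted p = 0.305), and at sites with at least 50 MspI tags it was -3.73 (exact test, adjusted p = 0.0156). Each of the 3 main differences had the same direction in all 8 livers. Neighbour numbers within a class were not the same in the 2 regions. Of the clustered sites, 20 of 62 in the locus and 250 of 405 in the flanks had 7 or more neighbours. Of the sites with 1 to 4, 113 of 312 in the locus and 594 of 1230 in the flanks had exactly 1. The class differences were not weighted for this, so part of them may lie in neighbour number.

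Counting neighbours one by one showed where the locus departed from the flanks. Sites with exactly 1 neighbour (113) averaged 31.8 in the locus and ranged from 28.7 to 35.4 over the 8 livers, against 24.6 (23.3 to 26.5) in the flanks. Sites with 2 neighbours (85) averaged 43.8 (40.1 to 46.6) in the locus, against 31.8 (29.8 to 33.7) in the flanks. With 3 neighbours (69 sites) the means were 37.4 (36.04 to 39.3) in the locus and 38.4 (37.0 to 39.3) in the flanks, and the ranges overlapped. With 4 neighbours (45 sites) they were 54.2 (51.1 to 57.2) and 55.0 (53.4 to 56.5). The locus was lower with no overlap at 5 neighbours, where its 32 sites averaged 55.01 (51.2 to 60.2), against 63.1 (61.6 to 64.5) in the flanks. It was also lower with 6 neighbours, where its 10 sites averaged 60.7 (54.7 to 66.0), against 75.03 (73.0 to 77.3) in the flanks. With 7 or more neighbours the 20 sites of the locus averaged 74.4 (70.8 to 78.3), against 73.1 (69.5 to 75.7) in the flanks. When the flanks were weighted to the neighbour numbers of the locus, the locus still exceeded them by 3.85 (exact p = 0.00781).

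**Figure D2:**
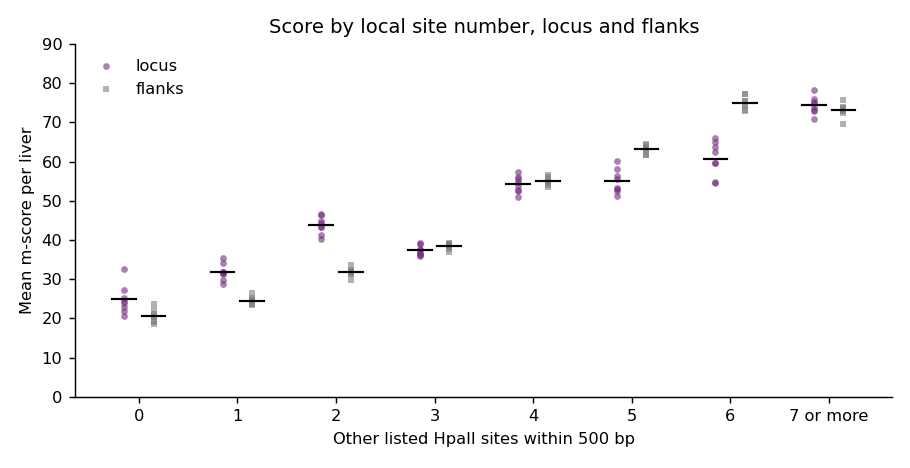
Mean m-score per liver (vertical axis) of sites grouped by how many listed sites lie within 500 bp of them (horizontal axis), in the locus and in the flanks. Each point is 1 of 8 livers and the black line is their mean. The locus lies above the flanks at 1 and 2 neighbours with no overlap of the livers and below them at 5 and 6 neighbours.

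Intermediate methylation scores set the locus apart among sites with few neighbours. Of the sites with 1 to 4 neighbours, 49.6% ± 2.79 scored from 25 to below 75 in the locus, against 33.9% ± 0.836 in the flanks (SD, n = 8). The difference was 15.7 percentage points and had the same direction in all 8 livers (exact sign-flip test, adjusted p over 3 classes = 0.0117). At isolated sites the intermediate share was 40.6% ± 6.99 in the locus and 28.1% ± 1.94 in the flanks, a difference of 12.4 points (SD, n = 8, exact test, adjusted p = 0.0117). That difference was 7.15 points with flanks of 1 Mb and 27.8 points at sites with at least 50 MspI tags. These 2 comparisons were chosen after the values were seen. At clustered sites the share was 47.4% ± 3.65 in the locus and 43.3% ± 4.23 in the flanks, a difference of 4.05 points that missed the threshold (SD, n = 8, exact p = 0.0703). Without sites whose HpaII tags were not whole it turned to -2.04 (exact p = 0.258), and with neighbours within 1000 bp it was 8.48 and passed (exact p = 0.00781). Against the telomeric flank alone it was 8.45 (exact p = 0.00781), and against the centromeric flank alone 1.26 (exact p = 0.562).

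Clustered sites of the locus differed at the ends of the scale instead. Scores of 75 or above were found at 39.5% ± 3.66 of them, against 52.6% ± 4.43 in the flanks, lower in all 8 livers (SD, n = 8, exact p = 0.00781). Scores below 25 were found at 13.1% ± 2.19, against 4.04% ± 0.395 in the flanks, higher in all 8 livers (SD, n = 8, exact p = 0.00781). Both were added after the values were seen, and neither was weighted for neighbour number.

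Within the locus, sites with tags that were not whole had more intermediate scores than the rest, while in the flanks they had fewer. A site was counted as not whole only if some liver had a fractional HpaII count above 0. Sites without HpaII tags, which score 0, thus all fell among the rest, so the contrast within a region is partly set by this rule. Of the 44 such sites with 1 to 4 neighbours in the locus, 73.3% scored from 25 to below 75 (63.6% to 79.5% over the livers). The 268 sites with whole HpaII tags had 45.7% (41.4% to 49.6%), against 34.03% (32.9% to 35.6%) at the 1212 such sites of the flanks. At sites with 1 to 4 neighbours whose tags were not whole, the share was 22.2% over 18 sites in the flanks, and outside the locus as a whole it was 26.4%, against 29.7% where tags were whole. Left with whole HpaII tags only, the locus thus exceeded the flanks by 11.6 points, with no overlap of the livers (exact p = 0.00781). When sites with fractional MspI tags were also left out, the difference was 12.6 points over 254 sites.

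**Figure D3:**
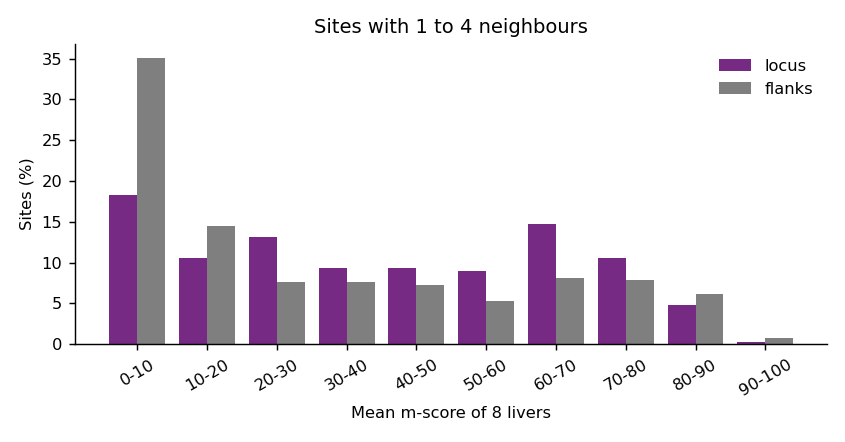
Percent of sites with 1 to 4 neighbours (vertical axis) by mean m-score over 8 livers in steps of 10 (horizontal axis), for 312 sites of the locus and 1230 sites of the flanks. Scores below 10 were held by 18.3% of the sites in the locus and 35.04% in the flanks, and scores from 60 to 70 by 14.7% and 8.05%.

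Against fixed 1 Mb bins of the rest of the genome, the intermediate share of the locus stood near the top. Of 1428 bins with at least 100 sites of 1 to 4 neighbours, 1 had a share as high as the 49.6% of the locus, and the median bin had 29.6%. With whole HpaII tags only, 1 of 1384 bins was as high as the 45.7% of the locus. The mean m-score at these sites, 39.5, was reached by 13 of the 1428 bins, whose median was 25.4. These ranks are a description without a test, and bins differ in the number and spacing of their sites.

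The spread between livers at intermediate sites of the locus was somewhat larger than the counting error estimated from their tags. Over the 247 sites with a mean score from 25 to below 75, the median SD between livers of the same diet was 12.5, and the median SD that tag counting alone would give was 10.4 (from the tags of each site, treating them as independent). The 824 such sites of the flanks had a median SD of 12.4 and a counting SD of 9.88. At clustered sites the median SD was 12.3 for 32 sites in the locus and 9.56 for 197 sites in the flanks, with counting SDs of 9.44 and 7.08. The clustered sites of the locus also had fewer MspI tags, with medians of 31.9 and 39, and the part of depth in this contrast was not tested. Tags are PCR products without molecular identifiers, so counting error is a lower limit of the technical spread.

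The level varied along the locus. Divided into 10 parts of 93 kb, the locus had mean m-scores from 26.9 in the sixth part to 49.6 in the last 2 parts. The ninth part, from 37824001 to 37917000, was the richest in sites, with 157 listed and 136 used. Of these, 67.6% had an intermediate mean score, and 22.3% of the listed sites had tags that were not whole. The tenth part, from 37917001 to 38010000, had 71 used sites, of which 49.3% were intermediate and 25.4% scored 75 or above. Parts 4 to 7, from 37359001 to 37731000, had means from 26.9 to 28.9, and no site with at least 10 MspI tags in them scored 75 or above on average. The first part, from 37080000 to 37173000, had a mean of 29.3 over 60 sites, none with 5 or more neighbours.

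A cluster was a run of 5 or more listed sites in which no gap exceeded 500 bp, and the locus held 26, with 209 listed sites and 179 in use. Their mean m-scores lay below 25 in 2, from 25 to below 75 in 22 (84.6%) and at 75 or above in 2. In the flanks 46 of 80 clusters (57.5%) were intermediate, and 18 (22.5%) scored 75 or above. Elsewhere in the genome 48.9% of 28707 clusters were intermediate. The median cluster had 6.5 listed sites in the locus and 7 in the flanks. Its mean m-score was 53.5 in the locus, 68.05 in the flanks and 59.6 elsewhere. By these limits the median cluster was thus intermediate in the flanks and elsewhere too. These shares are descriptions, without a test.

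Only clusters 10 and 25, counted along the locus, averaged 75 or above. Cluster 10, from 37803590 to 37803900, had 82.5, 82.8, 79.3 and 85.1 in lingonberry livers and 79.9, 80.6, 84.2 and 80.4 in HFD livers. Cluster 25, from 37965934 to 37968222, was the one with most sites, with 18 listed. It had 80.9, 83.1, 80.8 and 82.4 in lingonberry livers and 82.1, 81.4, 80.8 and 81.7 in HFD livers, and its SD over 8 livers, 0.83, was the smallest of the 26. Neither held a site with HpaII tags that were not whole. The next in order were cluster 4, from 37303459 to 37304851, with a mean of 69.7 ± 2.49, cluster 3, from 37249548 to 37250569, with 69.2 ± 6.15, and cluster 23, from 37915302 to 37916829, with 68.1 ± 2.24 (SD, n = 8). These last 3 did not differ from one another beyond their spread.

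At the methylated end, cluster 9, from 37703255 to 37704046, had a mean of 8.30 ± 6.63 (SD, n = 8), from 2 sites in use. Cluster 7, from 37602034 to 37602941, had 19.8 ± 5.86 from 4 sites, and cluster 8, from 37645205 to 37645895, had 27.001 ± 14.6 from 4 sites. Cluster 8 was the most variable of the 26, with 22.8, 6.502, 37.2 and 37.2 in lingonberry livers and 12.3, 16.8, 48.5 and 34.8 in HFD livers. Both diets thus held livers near the methylated end and livers of intermediate score. Cluster 11, from 37834248 to 37835175, had 28.3 ± 4.38, and cluster 6, from 37454447 to 37455718, had 28.6 ± 3.12 (SD, n = 8).

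Clusters 11 to 24 formed an array of 14 CpG-rich runs within 89.1 kb, from 37834248 to 37923378. Their order and number were noted after the positions were seen. Neighbouring clusters of the array were separated by a median of 3997 bp (1426 to 24495 bp), against a median of 55125 bp (30348 to 146316 bp) after each of the first 10 clusters. All 14 had an intermediate mean score, from 28.3 to 68.1 with a median of 56.1. The median cluster of the flanks, at 68.05, was intermediate as well. The first 10 clusters ran from 8.30 to 81.8. In the array 33 of 114 listed sites had HpaII tags that were not whole, against 6 of 67 in the first 10 clusters, and the part of these sites in the scores of the array was not tested. All 5 sites of cluster 12, from 37841425 to 37841918, were of this kind. Clusters 15 and 23 held none, and cluster 15, from 37854087 to 37855241, had 54.7 ± 4.68 (SD, n = 8).

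**Figure D4:**
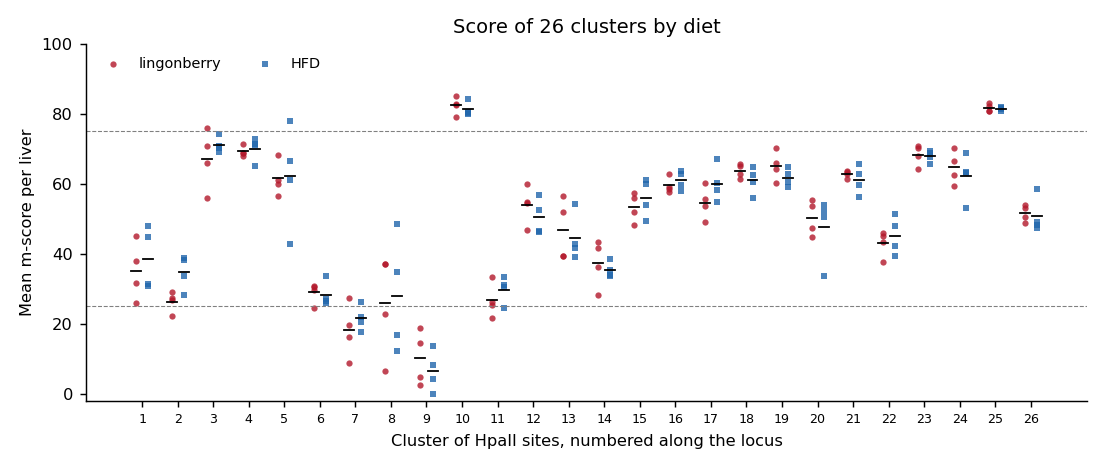
Mean m-score per liver (vertical axis) of the 26 clusters, numbered along the locus from its centromeric end (horizontal axis). Points are 4 lingonberry and 4 HFD livers per cluster, black lines are group means, and dashed lines mark 25 and 75. Clusters 10 and 25 lie above 75 in every liver, and the 2 diets overlap in all 26 clusters.

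Diet was compared next, to ask whether the lingonberry supplement altered methylation at the locus. Over all 471 sites the mean m-score was 39.4, 36.5, 39.0 and 40.7 in lingonberry livers and 37.3, 40.0, 43.0 and 40.2 in HFD livers. The groups overlapped, with means of 38.9 ± 1.74 and 40.1 ± 2.31 (SD, n = 4 each). The difference was -1.21 and did not pass (two-sided exact permutation test over 70 assignments, p = 0.371). It was -0.260 without HFD replicate 3, -0.426 without lingonberry replicate 2, -2.14 without HFD replicate 1 and -0.328 with density factors, which divide each liver's tags by the relative yield of unmethylated sites of like neighbour number. Relative to the flanks, which differed by -0.717, the locus differed by a further -0.497 (exact p = 0.714), and without HFD replicate 3 this turned to 0.246. The mean of all sites outside the locus differed by -1.36, with no overlap of the livers (exact p = 0.0286), and by -0.211 with density factors (exact p = 0.657). Those factors were estimated from these same livers, so dividing by them can also remove a difference in methylation. No separate diet difference of the locus was thus detectable with 4 livers a group.

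By number of neighbours, isolated sites had 22.8, 20.5, 23.96 and 24.5 in lingonberry livers and 22.0, 27.2, 32.7 and 25.1 in HFD livers, a difference of -3.79 (exact p = 0.171, adjusted over 3 classes 0.514). With density factors it turned to 0.488 (exact p = 0.771). HFD replicate 3 stood highest, and the other HFD livers overlapped the lingonberry range or lay just above it. Without that liver the difference was -1.81, and without HFD replicate 1 it was -5.38 (exact p = 0.0286, adjusted 0.0857). Sites with 1 to 4 neighbours had 39.1 ± 1.74 in lingonberry livers and 39.95 ± 1.91 in HFD livers (SD, n = 4 each), and their difference of -0.806 missed the threshold (exact test, adjusted p = 0.686). Clustered sites had 62.6 ± 2.65 in lingonberry livers and 61.8 ± 2.21 in HFD livers (SD, n = 4 each), and the difference of 0.760 did not pass either (exact test, adjusted p = 0.686). The isolated minus clustered score was -39.6 ± 2.20 in lingonberry livers and -35.07 ± 4.34 in HFD livers (SD, n = 4 each), and its difference of -4.55 did not pass (exact p = 0.114). At isolated sites outside the locus the mean m-score differed by -2.80 (exact p = 0.0286), and by 0.400 with density factors (exact p = 0.571).

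HpaII tags per 1000000, which do not use the MspI reference, were 601.0 ± 22.8 with lingonberries and 615 ± 26.1 without over the whole locus (SD, n = 4, exact p = 0.457). At isolated sites of the locus they were 38.8, 35.3, 42.3 and 38.1 in lingonberry livers and 44.2, 47.7, 62.8 and 44.2 in HFD livers, with no overlap. The log2 ratio was -0.35 (exact p = 0.0286, the smallest possible), in a comparison chosen after the values were seen. At isolated sites outside the locus the log2 ratio was -0.32 (exact p = 0.0286), and whether the 2 ratios differ was not tested.

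**Figure D5:**
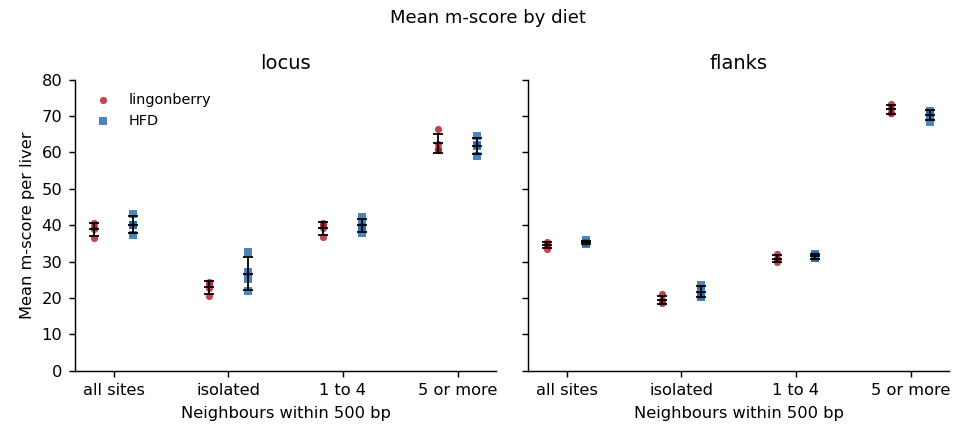
Mean m-score per liver (vertical axis) of all sites and of 3 classes by neighbours within 500 bp, in the locus (left) and in the flanks (right). Points are single livers, with lingonberry left of HFD in each pair, and bars are the mean and SD of 4. The diets overlap in the locus in every class, and isolated sites show the widest spread among HFD livers.

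One stretch separated the diets before correction. In the first of the 10 parts, from 37080000 to 37173000, the mean m-score was 25.95, 26.4, 26.5 and 26.8 in lingonberry livers and 29.4, 32.3, 36.2 and 31.1 in HFD livers. All lingonberry livers lay below all HFD livers, a difference of -5.84 (exact p = 0.0286). After adjustment over the 10 parts it did not pass (exact test, adjusted p = 0.286), and the other 9 parts had exact p-values from 0.2 to 0.943. The 38 sites with 1 to 4 neighbours in it differed by -5.59 (exact p = 0.0286) and the 22 isolated sites by -6.26 (exact p = 0.0571). Without sites whose HpaII tags were not whole the difference was -5.46 (exact p = 0.0286), after division by the density factors it came to -3.83 (exact p = 0.0571), and at the 11 sites with at least 50 MspI tags it was -4.09 (exact p = 0.0857). The mean of all sites outside the locus also separated the diets, at 28.5 ± 0.398 in lingonberry and 29.8 ± 0.612 in HFD livers (SD, n = 4 each). How many other stretches of 93 kb do so was not counted.

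No single site of the locus passed for diet. Of its 653 sites, 0 had an adjusted p below 0.05 in limma fitted to all 1310003 sites, where 176 passed (0.0134%), 52 as higher (0.00397%) and 124 as lower (0.00947%). Of the 471 sites with 10 or more MspI tags, 0 passed in a fit of such sites, where 0.00978% of all such sites were called (0.000435% higher, 0.00935% lower). An unadjusted p below 0.05 was held by 28 of the 471 (5.94%) and by 5.16% of all such sites. In the fit of all sites, 34 of the 653 stood out at an unadjusted p below 0.05 (5.21%), 7 higher and 27 lower with lingonberries, against 4.17% of all sites. A difference above 0, of any p, was held by 258 of the 653 and by 38.5% of all sites. How many of all sites were higher and lower at this p was not counted. The split was 3 higher and 5 lower among the 168 sites that averaged 10 or more HpaII tags. Together these made up 4.76% of the 168, against 5.11% of all such sites. After adjustment 0 of the 168 passed (0% of all such sites). Limma on log2 tags per 1000000 also called 0 of these 168 sites, against 1 of 222840 in all (0.000449%). On that measure 6 sites of the locus were higher and 5 lower at an unadjusted p below 0.05 (6.55%, against 5.87% of all such sites). The diets did not overlap at 2 of 162 well-covered sites as higher (1.23%) and at 5 as lower (3.09%) with lingonberries, where 1.88% and 1.35% of all such sites did so.

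Single sites are named only among those with at least 10 MspI tags. The one with the smallest p among those higher with lingonberries, at 37904238, lay between clusters 20 and 21 and had 57 MspI tags. Its m-score was 62.4, 66.6, 67.6 and 53.7 in lingonberry livers and 46.3, 51.3, 46.3 and 47.1 in HFD livers, a difference of 14.8 ± 3.39 (SE, limma adjusted p = 0.873). The site at 37844886, the first of cluster 13, had 78.9 ± 4.84 in lingonberry livers and 67.5 ± 2.53 in HFD livers (SD, n = 4 each, limma adjusted p = 0.873). Among sites that were lower, the one at 37120552, in cluster 1, had 34.6, 26.05, 16.5 and 31.0 in lingonberry livers and 50.02, 37.3, 44.1 and 50.6 in HFD livers, a difference of -18.5 ± 5.37 (SE, limma adjusted p = 0.873). It lies in the first of the 10 parts. The site at 37828599 had 66.4 ± 3.41 in lingonberry livers and 74.9 ± 3.35 in HFD livers, and the isolated site at 37866458 had 31.8 ± 10.6 in lingonberry livers and 58.4 ± 12.5 in HFD livers (SD, n = 4 each, limma adjusted p = 0.873 for both). At 37822633 the score was 12.04 ± 8.11 with lingonberries and 0 in all HFD livers, from 6 tags against 0 (SD, n = 4, limma adjusted p = 0.873). Without lingonberry replicate 2, itself at 0, its difference was 16.1 and passed (limma adjusted p = 0.0302).

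Clusters gave the same answer, with 0 of 26 past the threshold in limma over 28733 clusters, of which 0 passed (0%). At an unadjusted p below 0.05, 1 cluster of the locus (3.85%) and 7.63% of all clusters stood out, and limma on log2 tags also called 0 of the 26. At an unadjusted p below 0.05 on log2 tags, 1 cluster of the locus (3.85%) and 10.97% of all clusters stood out. In 14 clusters the lingonberry mean was higher and in 12 lower, with differences from -8.35 to 3.65. In no cluster of the locus were the diets without overlap, where 3.11% of all clusters were so as higher and 1.12% as lower. Cluster 2, from 37151988 to 37152780, had the smallest p. It had 26.8, 29.2, 27.3 and 22.2 in lingonberry livers and 28.2, 38.7, 38.1 and 33.7 in HFD livers, a difference of -8.35 ± 3.37 (SE, limma adjusted p = 0.636). Only HFD replicate 1 fell within the lingonberry range. Cluster 17, from 37885391 to 37886611, differed by -5.45 ± 3.22 and cluster 3 by -3.94 ± 3.82 (SE, limma adjusted p = 0.694 and 0.800). Without lingonberry replicate 3 the difference of cluster 3 was -0.200, and without lingonberry replicate 4 it was -6.86. That of cluster 17 was -3.14 without HFD replicate 3 and -3.63 without lingonberry replicate 1. In the other direction, cluster 19, from 37896567 to 37897811, differed by 3.44 ± 2.35, cluster 18, from 37890732 to 37892638, by 2.82 ± 2.17 and cluster 12 by 3.53 ± 3.53 (SE, limma adjusted p from 0.723 to 0.807). Without lingonberry replicate 4 cluster 19 differed by 1.76, and without HFD replicate 4 cluster 18 differed by 1.19. Cluster 12 ranged from 1.59 without lingonberry replicate 1 to 5.90 without lingonberry replicate 2.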

How the data were processed

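Each deposited file holds 1 liver and lists, per HpaII site, 2 values named in the file headers: an m-score, a score from 0 to 100, and conf, a signal that is never negative. How the authors computed both, their aligner, filters and the origin of the MspI reference are not stated in the labels or headers. From the values, the score behaved as the angle and the signal as the length of a vector of HpaII and MspI tags. The submitters' processing notes name mm9 and CASAVA. The sine component gave the HpaII tags, which were whole within 0.02 at 96.1% to 97.0% of sites above 0. The cosine component had 1 ratio between files, so 1 MspI reference had been scaled to each library, and scores are relative to the other sites of a liver.

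The diet comparisons used exact permutation tests over livers, two-sided (smallest p 0.0286), and the locus with its flanks by exact sign-flip tests (smallest p 0.00781). Sites and clusters were tested genome-wide with limma 3.58.1 (R 4.3.3), empirical Bayes with a mean trend, Benjamini-Hochberg adjustment and a threshold of 0.05, and the test was tried on simulated data. The labels do not say that the 8 samples came from separate mice, so the p-values reflect variation among samples that could be technical. Sites named are the 3 with the smallest p in each direction among sites of the locus with at least 10 MspI tags. Clusters named are the 5 highest, the 5 lowest, the one with most listed sites and the 3 with the smallest p in each direction. Clusters 1, 13, 15, 20 and 21 and the first part of the locus were singled out after their values or positions were seen. Density factors divided tags by the relative yield of unmethylated sites of like neighbour number. The members, classes and tests were chosen with earlier results of these data known. The labels give no batch.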

Additional observations from a re-analysis of the deposited data

Results flagged for a closer look

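Among 84 groups of 4 livers, 4 held a liver set well apart from its group, and about 4.2 would by chance. In the flanks, lingonberry replicate 3 had 29.3% of isolated sites with an intermediate score, against 26.04% to 26.3% in the other lingonberry livers. In cluster 6, HFD replicate 3 had an m-score of 33.7, against 25.8 to 26.9 in the other HFD livers. In cluster 10 the same liver had 84.2, against 79.9 to 80.6. In cluster 26, from 37980946 to 37982605, HFD replicate 2 had 58.6, against 47.5 to 49.2.

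A set of 4 sites of the locus was listed in some files only and so entered no comparison, yet held HpaII tags above the 3 that a count of 0 allows. The site at 37482274 was listed in 5 of 8 files with 50.2 tags in all, the one at 37637476 in 5 files with 33.7, the one at 37845158 in 6 files with 34.6, and the one at 37728340 in 1 file with 4.56.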

How the results depend on the processing

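Over all results and settings, 363 values were scored as unchanged, 15 turned, 7 newly passed, 2 no longer passed and 4 counts moved. For tests, unchanged meant the same direction and side of the threshold, and for counts of called sites or clusters the same number. For levels of named clusters it meant a shift below the SD over 8 livers. Leaving out 1 of 8 livers cannot shift a mean that far, so those scores say nothing about robustness. With at least 50 MspI tags the locus minus flank mean was 0.589, and with flanks of 1 Mb the isolated difference was 1.66, neither past the threshold. The clustered locus minus flank score was 1.23 with neighbours within 250 bp. The clustered intermediate share, 4.05 points, became 4.28 with at least 1 MspI tag, 8.48 with neighbours within 1000 bp, 6.58 with flanks of 1 Mb and 8.45 with the telomeric flank, each past the threshold. It was 1.26 with the centromeric flank, -2.04 without sites with HpaII tags that were not whole, -2.40 without those with HpaII or MspI tags that were not whole (a setting added after the data were seen) and -0.621 with limits of 20 and 80, none past it. Diet differences that turned, none past the threshold in either direction, were those at isolated sites (0.488 with density factors), at sites with 1 to 4 neighbours (0.771 with at least 50 MspI tags) and at clustered sites (-0.664 with at least 50 MspI tags, -0.869 with density factors, -0.137 within 250 bp and -0.141 within 1000 bp). The cause was not tested. Leaving out 1 liver gave from -1.31 to 0.246 for the diet difference relative to the flanks, from -2.14 to -0.260 for that over the locus, from -5.38 to -1.81 at isolated sites, from -1.53 to 0.0264 at sites with 1 to 4 neighbours, from -0.521 to 1.65 at clustered sites, from 2.96 to 4.98 for the clustered intermediate share (past the threshold without lingonberry replicate 2 or HFD replicate 3), and from 0 to 2 called sites, with 1 without lingonberry replicate 1, HFD replicate 3 or HFD replicate 4 and 2 without lingonberry replicate 2. The share of all 1310003 sites called in the fits without 1 liver is not given, so these counts of called sites have no background here. No paired analysis was possible because the labels give no number that pairs livers between the diets. A median of 5.25 HpaII tags per site used in the locus limits what single sites can show.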

Other observations

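The only 1 Mb bin with an intermediate share at least as high as that of the locus, among sites with 1 to 4 neighbours, lay on chromosome 4 from 114000000 to 114999999 (mm9). It had 51.9% over 209 sites and a mean m-score of 39.5, against 49.6% and 39.5 in the locus. It was singled out after its value was seen.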
